A study of Fukomys damarensis with 16 samples.

Results

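The genes described here are the 150, of 21082 in the deposited table, that were lowest in the liver of the Damaraland mole-rat (Fukomys damarensis) relative to every other tissue measured. For each gene the gap was taken between the lowest of the 12 brain, kidney, ovary and testis libraries and the highest of the 4 liver libraries, on a log2(RPKM + 1) scale, and the 150 genes with the largest gap were kept. RPKM divides the reads of a gene by its length in kilobases and by a total for its library, in units of 1e6 reads. The level in liver against the other tissues therefore chose the genes, and it is given below as a description, without a test.

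The mole-rat is a burrowing rodent in whose colonies few animals breed. Messenger RNA with a poly(A) tail was sequenced in 16 libraries, 4 each of liver, kidney and brain and 2 each of ovary and testis. For liver, kidney and brain, both sexes were sampled as breeders and as non-breeders, with 1 library each. The non-breeding males were 5 years old and the non-breeding females 3. One of the 2 ovaries is of a breeder and the other of a 3-year-old non-breeder, and the testes are of a breeder and of a 5-year-old non-breeder. No age is stated for breeders, which ties age to status, and age goes with sex among the non-breeders. All brain libraries except that of the non-breeding male are labelled frontal brain. No treatment or genetic change is given, and the labels do not say which libraries share an animal or whether animals were pooled. Each combination of tissue, status and sex is a single library, so errors describe how libraries of the same tissue differ, and a p-value measures only that spread.

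Liver is made up mostly of hepatocytes, which secrete plasma proteins and run much of the body's intermediary metabolism. Some genes that other organs use are known to be little used by hepatocytes. A textbook case is the enzyme that lets brain, kidney and muscle burn ketone bodies, which liver makes and does not itself consume. The identifiers in the table could not be paired with gene names (0 of 21082 were found in RefSeq's table of 33132 genes for this species). Whether such genes are among the 150 is therefore not known here, no function or sequence can be given for any of them, and the tissue labels could not be checked against marker genes. Identifiers are printed for a few genes only.

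The scaling of the libraries bears on every comparison with liver. Reads on genes came to 15393003 to 27593857 per library. The RPKM of a liver library add up to 1172846 to 1536307, against 430941 to 681080 elsewhere. Relative to the library total that the deposited RPKM were divided by, which the sources used here do not explain, the gene reads were 1.55 to 1.97 times as many in the livers. They were 0.665 to 0.945 times as many in the other tissues, so that gene reads exceeded this divisor in liver alone. By the sum of RPKM, the deposited values thus put liver relatively high. With each library scaled to the same sum of RPKM, the gap became larger for all but 1 of the 150 genes and its median went from 1.53 to 2.15. Whether that scale is the better one for these tissues was not tested.

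In every liver the median of these genes lay near 1 RPKM, and in each of the other tissues above 10 RPKM. Their median level was 0.769 RPKM in the breeding male liver, 1.01 in the breeding female, 0.893 in the non-breeding male and 0.786 in the non-breeding female liver. In kidney the 4 medians lay between 14.0 and 18.3 RPKM, in brain between 29.7 and 33.2, in ovary at 12.3 and 12.8 and in testis at 16.004 and 16.07. The rule keeps the 4 livers below all other libraries for each gene. Together the 150 genes drew 0.0372% to 0.0593% of a liver library's gene reads and 1.02% to 3.84% of those of the other libraries. In bulk tissue, fewer cells of a type and less RNA per cell cannot be told apart.

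**Figure D1:**
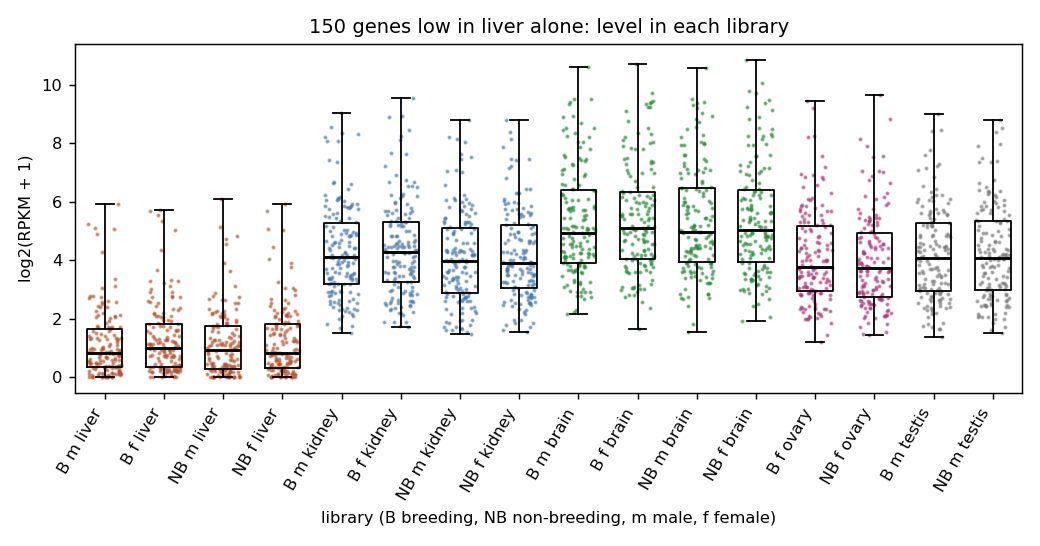
Level of each of the 150 genes, as log2(RPKM + 1), in each of the 16 libraries; points are genes, boxes span the quartiles with the median as a line, and whiskers reach the lowest and highest gene. The liver medians lie at 0.769 to 1.01 RPKM and those of the brain at 29.7 to 33.2 RPKM, above the other tissues.

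Across all 21082 genes, 7.44% lay lower in every liver library than in every other library, by any margin. The 150 are the far end of these, with gaps from 1.16 to 3.14 and a median of 1.53. As a ratio of RPKM, the lowest other library exceeded the highest liver library by 4.75 times in the median gene that had a liver value above 0, and by 2.34 to 39.1 times over all such genes. The cutoff is not a natural break. The last 2 genes inside had gaps of 1.1605 and 1.1578, and the first 2 outside 1.1570 and 1.1535. The former of the pair inside stood at up to 7.67 RPKM in liver and at least 18.4 elsewhere, while the latter stood at up to 0.398 and at least 2.12. The first gene outside stood at up to 11.6 RPKM in liver and at least 27.1 elsewhere. A given gap therefore covers both genes that are nearly silent in liver and genes that are merely lower there.

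The gene with the largest gap was DMR_20476 (length 1257 bases). It had 1.08 RPKM in the breeding male liver, 1.19 in the breeding female, 1.08 in the non-breeding male and 0.541 in the non-breeding female liver, from 19, 23, 18 and 10 reads. In the same order of animals it had 73.7, 48.4, 48.4 and 43.1 RPKM in kidney and 85.5, 61.8, 88.5 and 65.6 in brain. The breeding and non-breeding libraries had 57.0 and 40.2 RPKM in ovary and 18.9 and 18.3 in testis. This gene was thus high in kidney, brain and ovary, lower in testis, and far lower in all 4 livers.

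DMR_07297, with a length of 2556 bases, had nearly the same gap. Its 4 livers stood at 1.57, 0.764, 0.796 and 0.931 RPKM, from 27 to 56 reads each. Kidney stood at 47.3 to 62.3 RPKM, brain at 80.9 to 109, ovary at 23.7 and 21.6 and testis at 21.5 and 22.2. Brain was the highest tissue for both genes, without overlap with kidney for DMR_07297 and with overlap for DMR_20476.

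The liver level itself ranged widely among the 150 genes. All 4 livers were under 1 RPKM for 63 genes, all 4 at 1 RPKM or more for 50, and the livers fell on both sides for 37. The 4 livers together held a median of 93 reads per gene (quartiles 24.25 and 243), against 13229 in the other 12 libraries. Precision in liver was accordingly low for many of them: 22 genes had 10 or fewer reads in the 4 livers together, and 73 had 100 or more. Listed at 0 in at least 1 liver were 24 genes.

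For 3 of the 150 genes (ranked 61, 75 and 144) no liver held a read. The first is a gene of 1152 bases with a mean of 42.6 RPKM in brain, 4.87 in kidney, 4.48 in ovary and 2.67 in testis. A count of 0 allows up to 3 reads, here over the 4 livers together, which is 0.0454 RPKM for this gene, so its lowest other library was at least 48.0-fold higher. The gene ranked 75 likewise led in brain (mean 45.8 RPKM) and was at least 20.2-fold higher in its lowest other library. The gene ranked 144, short at 333 bases, led in kidney (mean 31.6 RPKM) and was at least 8.20-fold higher. These limits cover counting error only.

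At the other end, 6 genes stood at 10 RPKM or more in every liver, so low in liver here does not mean absent. The highest of them had 59.3, 50.4, 67.2 and 59.3 RPKM in the livers. It had 235 to 313 in kidney, 175 to 242 in brain, 292 and 239 in ovary and 506 and 444 in testis. Another, ranked 12 by gap, had 34.4 to 49.9 RPKM in liver, 261 to 471 in kidney, 523 to 881 in brain, 687 and 789 in ovary and 342 and 328 in testis. Both were abundant in every tissue and several times lower in liver.

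Outside liver, brain was the most frequent tissue of highest level. By mean log2 level 82 of the 150 genes (54.7%) peaked in brain, 27 in kidney, 20 in ovary and 21 in testis. Among the 10349 genes that were at least as high as the lowest of these genes (1.29 RPKM) in all 12 libraries outside liver, 25.4% peaked in brain, 23.7% in kidney, 25.1% in ovary and 25.8% in testis. Brain led the next tissue by at least 1 on the log2 scale for 49 genes, kidney for 9, testis for 8 and ovary for 5. The count for brain was 84 with libraries scaled to the same sum of RPKM.

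**Figure D2:**
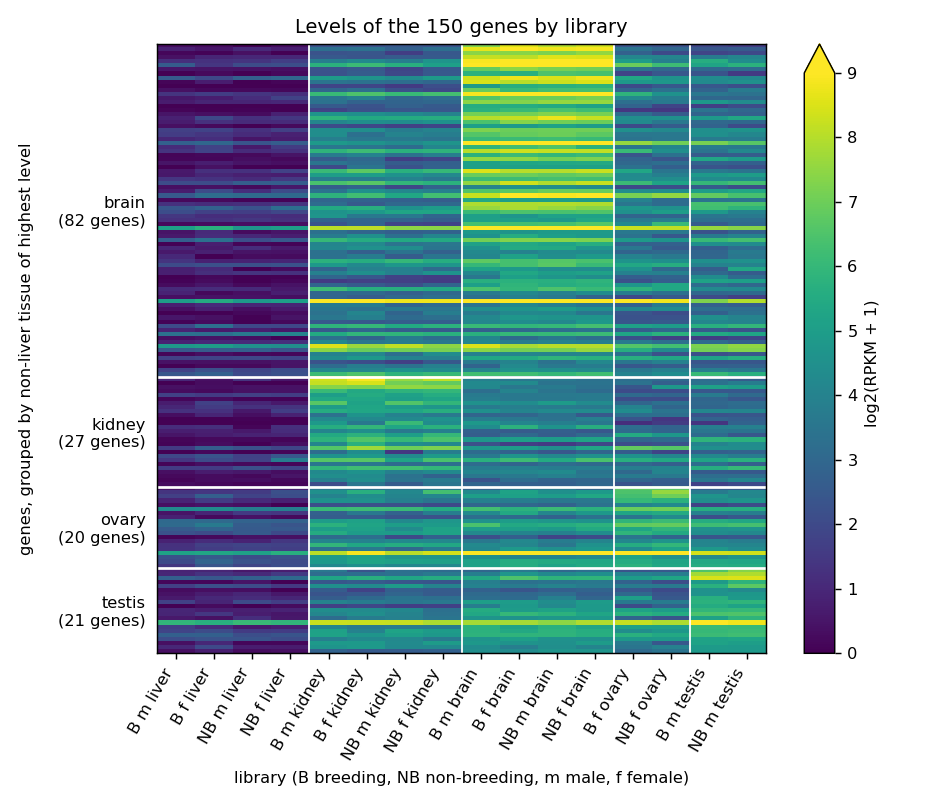
Log2(RPKM + 1) of the 150 genes (rows) in the 16 libraries (columns), with genes grouped by the non-liver tissue of highest mean level and ordered within a group by the lead over the next tissue; colours above 9 are drawn as 9. The 4 liver columns are darkest for every gene, and the largest group, of 82 genes, is brightest in brain.

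The 12 libraries outside liver were then compared in pairs of tissues, which the rule did not do, although it does require a high minimum over them. A gene was called where limma's adjusted p (Benjamini-Hochberg over 17044 genes and 6 pairs) was under 0.05 and the difference of mean log2(RPKM + 1) at least 1. Against kidney, 74 of the 150 genes (49.3%) were higher in brain and 18 (12%) lower, where 21.6% and 20.1% of all genes tested were called. Against ovary, 80 (53.3%) were higher in brain and 11 (7.33%) lower, beside 21.3% and 19.1% of all genes. Against testis, 71 (47.3%) were higher in brain and 13 (8.67%) lower, beside 23.1% and 25.1%. The median difference over the 150 genes was 1.01, 1.13 and 0.94 on the log2 scale, beside 0.00, 0.00 and -0.06 over all genes.

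The calls among kidney, ovary and testis were nearer to those of all genes. Between kidney and ovary 33 (22%) were higher in kidney and 24 (16%) lower, beside 14.3% and 13.5% of all genes. Between kidney and testis the counts were 32 (21.3%) and 33 (22%), beside 21.9% and 26.2%. Between ovary and testis they were 27 (18%) and 31 (20.7%), beside 19.5% and 23.7%. Among the 10349 genes expressed in all 12 libraries outside liver, 15.5% were called higher and 20.2% lower in brain than in kidney, 15.7% and 20.8% in brain than in ovary, and 20.6% and 18.5% in brain than in testis. For kidney against ovary they were 11.6% and 11.7%, for kidney against testis 23.4% and 16.4%, and for ovary against testis 23.3% and 14.6%. In all, 49 of the 150 genes (32.7%) were called higher in brain than in each of the 3 other tissues, beside 12.5% of all genes tested and 7.51% of the 10349. Lower in brain than in each were 0, beside 4.29% and 4.74%. At least 1 of the 6 pairs was called for 135 genes (90%), beside 79.4% and 72.4%.

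With libraries scaled to the same sum of RPKM the median of all genes moved to 0.20 for brain against kidney, -0.24 for brain against testis, -0.17 for kidney against ovary, -0.50 for kidney against testis and -0.28 for ovary against testis. The counts higher and lower were then 82 and 13 for brain against kidney, 81 and 9 for brain against ovary and 65 and 20 for brain against testis. Of all genes, 26% and 15.8%, 22.7% and 17.7%, and 20.6% and 30% were called in these pairs. Voom, limma's model for counts, on the recovered reads gave 77 and 18, 76 and 13, and 63 and 23, beside 26.8% and 22.1%, 22% and 25.7%, and 20.6% and 35.1% of all genes. More of the 150 genes were called higher than lower in brain under both. With equal sums kidney against ovary turned to 23 and 29, kidney against testis to 21 and 47, and ovary against testis to 20 and 45. All genes leaned the same way there, with 12.2% higher and 16.6% lower, 15.1% and 35.5%, and 14.9% and 29.6%. Voom gave 25 and 33, 26 and 44, and 22 and 42 of the 150 genes, beside 13.9% and 23.2%, 18% and 37.7%, and 18.7% and 30.2% of all genes. The order of kidney, ovary and testis thus changed with the scaling for the 150 genes, as the lean of all genes moved in the same direction.

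**Figure D3:**
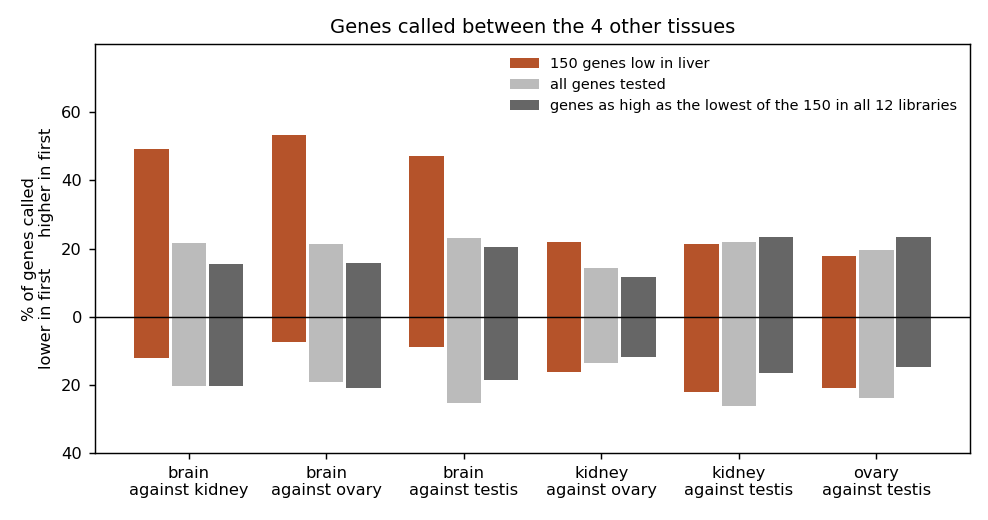
Percent of genes called higher (upward bars) or lower (downward bars) in the first tissue of each of 6 pairs, for the 150 genes, for all 17044 genes tested and for the 10349 genes at least as high as the lowest of the 150 in all 12 libraries. Upward bars of the 150 genes reach 49.3%, 53.3% and 47.3% for brain against kidney, ovary and testis.

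Single genes show how different the patterns outside liver were. DMR_17051 was the gene with the largest lead in brain: 156, 368, 246 and 315 RPKM there (breeding male and female, then non-breeding male and female). It had 3.72 to 4.35 RPKM in kidney, 4.09 and 3.61 in ovary, 2.64 and 2.06 in testis and 0 to 0.229 in liver, from 9 liver reads in all. On the log2 scale, brain exceeded testis by 6.28 (SE 0.273, limma adjusted p = 1.04e-09) and kidney by 5.71 (SE 0.223, limma adjusted p = 4.00e-10). All 4 brain libraries lay above all others. DMR_20714 had, among the 150, the largest excess of brain over testis, 6.37 (SE 0.211, limma adjusted p = 1.03e-10), with 408 to 549 RPKM in brain and 4.29 and 5.07 in testis. The largest difference between brain and kidney was that of DMR_21668, at 275 to 373 RPKM in brain and 4.19 to 5.00 in kidney (5.83, SE 0.142, limma adjusted p = 1.16e-11).

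Kidney led for DMR_20744, a short gene of 432 bases. Its kidney libraries stood at 327 (breeding male), 481 (breeding female), 196 (non-breeding male) and 282 RPKM (non-breeding female). The other tissues stood at 9.22 to 14.0 in brain, 8.56 and 7.73 in ovary, 8.22 and 5.11 in testis and 0.302 to 1.57 in liver. The difference of brain minus kidney was -4.64 (SE 0.245, limma adjusted p = 6.22e-09). DMR_16432, shorter still at 285 bases, stood at 294, 350, 134 and 112 RPKM in kidney in the same order, at 9.72 to 18.8 in brain, 9.61 and 5.63 in ovary and 9.31 and 12.6 in testis. A single read in the breeding female liver was all that was found for it in liver. Kidney exceeded ovary by 4.57 (SE 0.451, limma adjusted p = 2.21e-06). Kidney and liver lay thus at opposite ends for both genes.

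Ovary led for DMR_13237, a long gene of 9774 bases with 109 RPKM (breeding) and 107 (non-breeding) in the ovaries. It had 10.04 to 12.1 RPKM in kidney, 6.56 to 13.0 in brain, 5.42 and 4.79 in testis and 0.402 to 0.813 in liver, with 367 liver reads in all. Ovary exceeded testis by 4.16 (SE 0.288, limma adjusted p = 7.98e-08). Testis led for DMR_17497, at 90.9 RPKM (breeding) and 164 (non-breeding) in the testes, against 4.10 to 10.8 in kidney, 7.10 to 11.6 in brain, 4.09 and 4.74 in ovary and 0.480 to 0.890 in liver. Ovary minus testis was -4.51 (SE 0.381, limma adjusted p = 5.33e-07). A second testis gene, DMR_13788, stood at 214 and 240 RPKM in testis and at 0.976 to 1.86 in liver, and kidney minus testis was -4.46 (SE 0.222, limma adjusted p = 3.58e-09). The leading tissue was set apart from all other libraries in each of these genes.

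**Figure D4:**
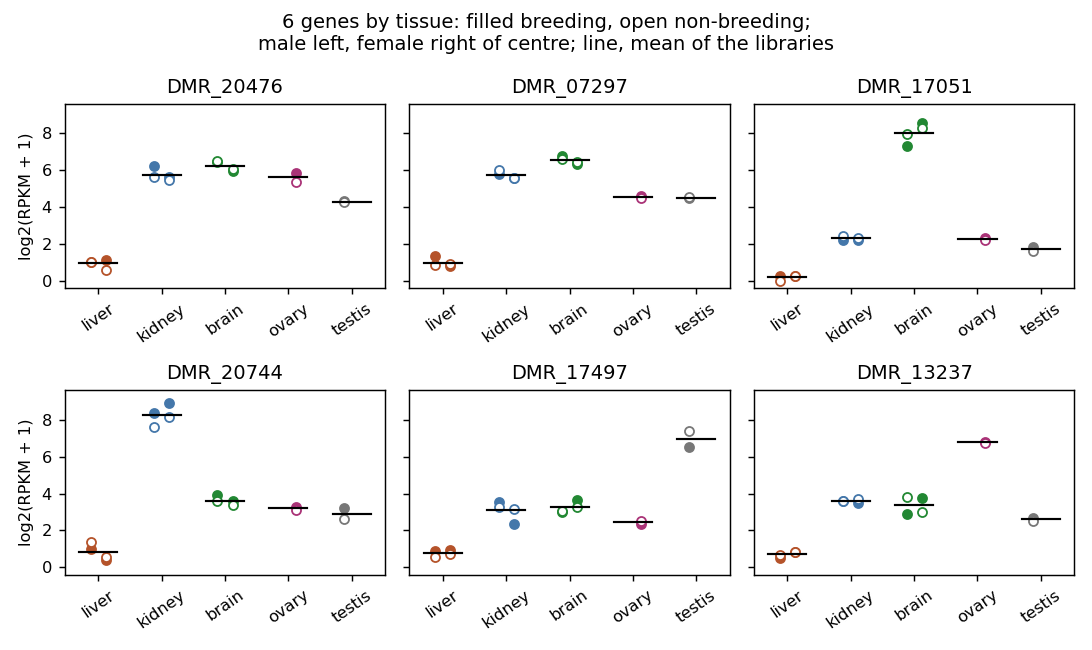
Log2(RPKM + 1) of 6 genes in every library by tissue: the 2 with the largest gap and, for brain, kidney, testis and ovary, the gene that led most in that tissue. Filled points are breeding and open points non-breeding libraries, males left and females right of centre, and lines are tissue means; liver is lowest in each panel, and the leading tissue differs between panels.

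Evenly expressed genes were the minority. The range of the 4 tissue means outside liver was at most 1 on the log2 scale for 13 genes and 3 or more for 43, with a median of 2.26, beside 1.49 for the 10349 genes expressed in all 12 libraries. The flattest gene, ranked 30, had a range of 0.32, with 27.6 to 37.2 RPKM in kidney, 34.3 to 47.0 in brain, 46.2 and 37.1 in ovary and 41.8 and 39.4 in testis. In liver it had 3.07, 6.49, 3.77 and 3.27 RPKM. The libraries outside liver lay close together for this gene, and liver lay well below them. The lengths of the 150 genes ran from 216 to 12111 bases with a median of 1615.5, beside 1389 for the genes expressed in all 12 libraries and 1056 for all genes.

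Among the livers, the breeding female library was the highest for 66 of the 150 genes (44%), the non-breeding female for 34, the non-breeding male for 27 and the breeding male for 23. Of all genes with a liver value among the 17327 at 1 RPKM or more in at least 2 of the 16 libraries, 26.7% were highest in the breeding female liver. That library had the lowest reads on genes relative to the divisor behind its RPKM (1.55, against 1.81 to 1.97 in the other livers), and whether this has a part in the count was not tested. Without it, 124 of the 150 genes were again chosen by the rule. Between its highest and lowest liver the median gene of the 150 differed by 0.48 on the log2(RPKM + 1) scale, beside 0.56 over all genes tested, and 22 genes differed by 1 or more. Near 1 RPKM this scale compresses ratios, so these values do not describe the relative spread.

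No gene of the 150 passed the test for breeding status. In a fit of the 12 kidney, liver and brain libraries with tissue, status and sex, limma called 0 of the 150 genes, where 0.0188% of all 15964 genes were called higher and 0.00626% lower in breeding libraries. An unadjusted p under 0.05 was reached by 14 of the 150 (9.33%) and by 13.5% of all genes. The smallest p belonged to DMR_16432, the kidney gene above, whose breeding libraries had 294 and 350 RPKM in kidney and 18.3 and 18.8 in brain, against 134 and 112 and 9.72 and 9.86 in the non-breeding ones. Its log2 difference was 0.79 (SE 0.181, limma adjusted p = 0.203), and it was higher in the breeding library in 4 of 4 kidney and brain pairs matched for sex. The gene was picked by its p in these same libraries, so the pairs add no separate support. With voom DMR_16432 was the 1 gene of the 150 called, beside 0.0251% of all genes higher and 0% lower. Its log2 difference was then 1.28 (limma adjusted p = 0.0258, range over the alternatives 0.0258 to 0.436).

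The sexes likewise gave 0 calls by limma in the same fit, beside 0.332% of all genes higher and 0.157% lower in males. An unadjusted p under 0.05 was reached by 29 of the 150 (19.3%), as by 19.4% of all genes. The estimate was lower in males for 101 genes and higher for 49, with a median of -0.11, beside 0.00 over all genes. In the fit of the 3 tissues together this lean was smaller with equal sums (60 higher in males, median -0.07). It was smaller also with voom (71 higher, median -0.03, beside 0.03 over all genes). The smallest p belonged to DMR_15006, a gene of nearly even level outside liver. In males it had 2.76 and 2.37 RPKM in liver, 23.2 and 19.0 in kidney and 11.7 and 17.2 in brain. In females it had 4.06 and 4.47 in liver, 28.2 and 28.7 in kidney and 24.4 and 22.7 in brain. The values of the sexes did not overlap in any of the 3 tissues, and the log2 difference was -0.56 (SE 0.12, limma adjusted p = 0.0641). Here too the same libraries picked the gene, so the lack of overlap is no separate support. DMR_15006 passed with a random block for status and sex class (adjusted p = 0.0223) and without the breeding female liver (adjusted p = 0.0378). The block called 4 of the 150 genes lower in males and 0 higher, beside 2.12% and 2.67% of all genes. Its estimated correlation was negative (-0.098), which makes the errors of a difference between classes smaller. Passing with the block is therefore not passing a stricter test. Without that liver 3 were called lower and 0 higher, beside 2.68% and 2.04% of all genes. Its adjusted p ran from 0.0223 to 0.179 under the alternatives. Voom called 1 other of the 150 genes, DMR_01378, lower in males, beside 0.683% of all genes higher and 0.664% lower.

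Within liver alone limma called 0 of the 150 genes for status (all genes: 0.00626% higher and 0.00626% lower) and 0 for sex (0.138% and 0.0752%). Voom called 0 in both, beside 0.0125% and 0.00626% of all genes for status and 0.157% and 0.226% for sex. An unadjusted p under 0.05 was reached by 13 (8.67%) for status and 8 (5.33%) for sex, beside 8.71% and 8.34% of all genes. With a pseudocount of 0.1, which compresses low values less, it was reached by 25 for status and 29 for sex. Of all 15964 genes 1436 and 1389 reached it then, and limma again called 0 of the 150. With voom it was 6 and 9, beside 1362 and 1539 of all genes. The counts for these low liver values thus depend on the scale. The smallest p for status belonged to DMR_14255, at 0.510 and 0.664 RPKM in livers of breeders and 1.23 and 2.42 in livers of non-breeders, from 7 to 35 reads each (log2 difference -0.80, SE 0.221, limma adjusted p = 0.47). For sex it belonged to DMR_20744, at 0.993 and 1.57 RPKM in males and 0.302 and 0.472 in females, from 2 to 9 reads each (log2 difference 0.71, SE 0.193, limma adjusted p = 0.368). At such read numbers counting error alone is large. Within liver the sex estimate was lower in males for 104 of the 150 genes and higher for 46, with a median of -0.14, beside 0.00 over all genes. With equal sums 29 were higher (median -0.13, as over all genes). With voom 31 were higher (median -0.48, beside -0.16 over all genes). Without the breeding male liver, or without the breeding female liver, the median was -0.02.

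Whether these effects differed between liver and another tissue was tested in the same fit. Limma and voom both called 0 of the 150 genes for the status effect and for the sex effect, in liver against kidney and against brain. Of all genes, limma on log2(RPKM + 1) called 0.00626% higher and 0% lower for status in each comparison, and 0% for sex. Voom called 0% of all genes for status. For sex it called 0.0188% higher and 0.0376% lower against kidney, and 0.00626% in each direction against brain. An unadjusted p under 0.05 was reached for the status effect by 14 genes (9.33%) against kidney and 4 (2.67%) against brain, beside 4.999% and 2.86% of all genes. For the sex effect it was reached by 9 (6%) and 1 (0.667%), beside 5.69% and 4.94%. With a pseudocount of 0.1 the counts against kidney and brain were 18 and 14 for status, beside 821 and 527 of 15964 genes. For sex they were 14 and 11, beside 863 and 752. Voom gave 8 and 3 for status, beside 664 and 458, and 11 and 8 for sex, beside 1029 and 1037. The smallest p belonged to DMR_14255 for status against kidney (limma adjusted p = 0.905) and DMR_20744 for sex against kidney (limma adjusted p = 0.452). Against brain they belonged to DMR_03950 for status (limma adjusted p = 1) and DMR_04471 for sex (limma adjusted p = 0.961).

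The gonads have a single breeding and a single non-breeding library each, which allows no test. In ovary 12 of the 150 genes were 2-fold or more higher (on RPKM + 1) in the breeding library and 5 lower, where 6.35% and 1.91% of 14109 genes at 1 RPKM or more were. The extremes were DMR_14170, at 32.8 RPKM (breeding) and 4.73 (non-breeding), and DMR_21997, at 4.31 and 25.999. In testis 2 of them reached that ratio upward and 3 downward, where 0.634% and 2.64% of 15452 genes were. DMR_14956 stood at 48.2 RPKM (breeding) and 19.7 (non-breeding), and DMR_06713 at 5.26 and 40.2. All 4 stayed at or under 2.16 RPKM in every liver.

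The same rule applied to each tissue in turn showed how often a tissue was the low one. A gap of at least 2 was found for 25 genes in liver, 22 in testis, 17 in brain, 12 in ovary and 0 in kidney. The gap of the gene at rank 150 was 1.16, 1.15, 1.003, 0.44 and 0.23. Testis and ovary have 2 libraries each, not 4, so their counts are not set on the same footing. Of the 150 genes lowest in kidney, 48 peaked in brain and 41 in liver, and of those lowest in testis, 39 in brain and 65 in liver. Of those lowest in ovary, 29 peaked in brain and 59 in liver, and of those lowest in brain, 76 peaked in liver, 31 in kidney, 24 in ovary and 19 in testis. These are counts of different lists and were not tested. A low tissue cannot be the peak of its own list, so liver could lead in every list but its own. The counts for brain are therefore not on the same footing as the 82 of the 150 genes low in liver. They rest on the deposited values, whose sums were larger in liver, and were not repeated with equal sums. With libraries scaled to the same sum of RPKM, the genes with a gap of at least 1 in liver rose in number from 196 to 882.

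**Figure D5:**
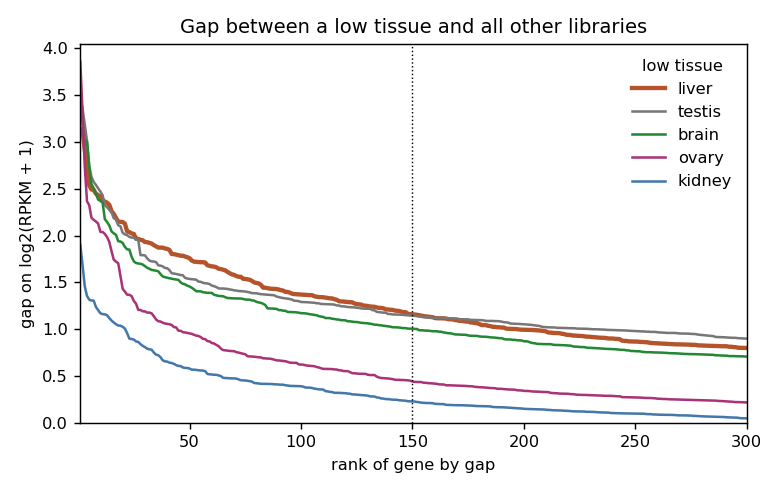
Gap on the log2(RPKM + 1) scale between the highest library of a low tissue and the lowest library of all other tissues, for the 300 genes with the largest gaps in each tissue, by rank; the dotted line marks rank 150. The curve for liver passes 1.16 at that rank, that for brain 1.003 and that for kidney 0.23.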

How the data were processed

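The authors deposited 1 table of RPKM values, per the file's name, with genes in rows; all 16 columns were used. TopHat 1.3.1 is named in the submitters' processing notes. The counting tool, build and annotation were not given in the sources used here. The genes, tests and lists were chosen with earlier results of these data known. The marker and gene lists could not be used, since no identifier paired with a symbol.

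Lengths (taken as multiples of 3 bases) and whole reads were recovered as the numbers that rebuild the values. The multiples of 3 were assumed, and the shortest length that fitted was kept. The sources do not say which part of a gene the length covers. A solution was found for 100% of 21082 genes, with rebuilt values within 2.9e-14 of the deposited ones. The divisor of the RPKM is not explained in the sources.

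Tests used limma 3.58.1 in R 4.3.3 (eBayes with trend) on log2(RPKM + 1), a scale that understates changes of low genes, for genes with at least 2 libraries of the fit at or above 1 RPKM; all 150 passed. They passed through the tissues where they are high. Pairs of tissues were fitted without liver (8 residual degrees of freedom), and status and sex in kidney, liver and brain together (7). Status and sex within each tissue were fitted on those same libraries, with a spread shared by the tissues (3). The fits for pairs of tissues and for status in kidney, liver and brain together were tested on simulated data. Identifiers are printed for the 2 largest gaps, up to 2 genes per direction of a comparison by size of difference, or the smallest p where none passed, the largest lead per tissue and the extremes of the gonad pairs.

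Alternatives were equal sums of RPKM, quantile normalization, a pseudocount of 0.1, no filter, voom, a random block and leaving out each library.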

Additional observations from a re-analysis of the deposited data

Results flagged for a closer look

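Outlying libraries were sought among the 4 of liver, kidney or brain, for the median of the 150 genes and for single genes. The single genes were those named above, without the extremes of the gonad pairs, and DMR_13484, called lower in kidney than in ovary. In 4 of 51 sets of values tested, a library's distance to the nearest other exceeded Dixon's 95% critical value of 0.829 of the range. For normally distributed values chance gives about 1 in 20, a rate that need not hold for values from few reads. With a single read in 1 library and 0 in the others, a flag is certain. All 4 were in liver at low read numbers. DMR_16432 had 0.229 RPKM in the breeding female liver, from 1 read, and was listed at 0 in the others. DMR_17051 was listed at 0 in the non-breeding male liver and at 0.209 to 0.229 RPKM in the others. DMR_20476 had 0.541 RPKM in the non-breeding female liver and 1.08 to 1.19 in the others. DMR_21668 had 0.322 RPKM in the breeding male liver and 0.915 to 1.02 in the others.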

How the results depend on the processing

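Of 273 counts of calls or of chosen genes under alternatives, with higher and lower calls added, 269 stayed within 1.5 times the reported value. The exceptions were the 1 gene called for status with voom and, for sex, the 1 called with voom, the 4 with a random replicate block for status and sex class, and 0 to 3 when leaving out a library (3 without the breeding female liver). Among the 269 are the many counts for status and sex that were 0 and stayed 0. The limit of 1.5 times also holds every overlap with the 150 genes, the lowest of which was 103. Taken by direction, 3 of 216 counts for pairs of tissues moved further: lower in brain than in testis from 13 to 20 with equal sums and to 23 with voom, and higher in kidney than in testis from 32 to 21 with equal sums. Of the 150 genes, 103 were chosen again with a pseudocount of 0.1, 116 with equal sums or tissue means, 121 with quantile normalization and at least 124 without any 1 library. Of 576 values of single genes, 573 kept direction and side of the threshold, 3 passed it (DMR_16432 and DMR_15006, above) and 0 reversed. Quantile normalization left kidney against ovary at 26 and 26. The cause was not tested. The labels give no replicate numbers; status and sex class, which recurs across tissues, was the replicate block, and whether a class is 1 animal is not stated. The block had an estimated correlation of -0.098 for status and sex and 0.117 for pairs of tissues, where it changed no count by more than 1.5 times. Liver read numbers limit what could be seen within liver.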
